A study of Mus musculus with 8 samples.

Results

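Autosomal transcript levels were compared between male and female mice in vomeronasal epithelium, the tissue that holds the pheromone-sensing neurons of the nose. Genes on chromosomes X and Y and in the mitochondrial genome (MT) were removed before any scaling, which left 44611 of the 48831 genes in the count tables, 86 of them on scaffolds that are not placed on a chromosome. A filter on low counts kept 19918 genes for the test, 15 of them on scaffolds. All mice were C57BL/6J, aged 8 weeks. Each sex had 4 libraries from whole tissue: 2 non-flushed pools, each from 2 mice, and 2 flushed libraries, each from 1 mouse. The labels thus cover up to 6 mice per sex. The protocol shared by all labels describes heparin flushing of every animal, whereas the sample descriptions reserve it for the single mice, and the sample descriptions were followed here. Neither hormone state nor the stage of the oestrous cycle was given in the sources used here.

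Vomeronasal neurons detect pheromones with the receptor families Vmn1r and Vmn2r, and the glands beside them release lipocalins, small barrel-shaped proteins that carry odorants and pheromones in the mucus. Both sexes carry the same autosomal genes, and gonadal steroids acting through hormone receptors are a known route by which such genes come to differ in level. In bulk tissue, a lower level of a gene because fewer cells of a type are present and a lower level per cell cannot be told apart.

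Total counts ran from 18763557 to 24965088 per library. Xist and the Y-linked genes matched the labelled sex in all 8 libraries. Of 47 defining markers of cell types, 44 were tested. Omp, the marker of mature vomeronasal neurons, lay between 351 and 497 CPM, a count scaled to a common library size, in every library. The channel gene Trpc2, which defines these neurons, was listed at 0 counts in every library, so it checks nothing here. Alas2, an erythroid marker on chromosome X, was left out with that chromosome. Lor, a keratinocyte marker, was under the filter. Genes of red blood cells were lower in flushed libraries, where the 18 erythroid genes tested summed to between 412 and 940 CPM, against 2000 to 2450 CPM in pools. The dates and lanes in the file headers divide the libraries exactly as the preparation does. Preparation, date and lane therefore cannot be told apart, but each holds 2 libraries of each sex.

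Autosomal levels were close between the sexes for most genes. Only 3 of the 19918 genes passed an adjusted p of 0.05 (percent called 0.0151), in edgeR's quasi-likelihood test with preparation as a covariate and Benjamini-Hochberg adjustment over all autosomal genes. The receptor gene Vmn2r58 was lower in males, and Dact2 and Sptb were higher. The median log2 difference, male minus female, was -0.003 over all genes, with quartiles at -0.104 and 0.078 and a median standard error (SE) of 0.109. The 95% interval lay within 1 log2 unit of 0 for 17730 genes (89.0%), and within 0.5 for 13140 (66.0%). A difference above 1 log2 unit was estimated for 237 genes, of which 1 was called. At an adjusted p under 0.1 the count was 12 (percent called 0.0602). Unadjusted p-values under 0.05 were found for 1570 genes (7.88%), 823 of them higher (4.13%) and 747 lower (3.75%) in males.

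The count depended on the tool. DESeq2 called 108 genes (percent called 0.542), 83 higher and 25 lower in males, and limma-voom called 1, Vmn2r58. Separately, 1560 genes (7.83%) had both male libraries above both female libraries, or both below, in the same direction in pools and in flushed mice. Scaled to library totals alone, that count was 3378 genes, 209 higher and 3169 lower in males, against 863 higher (4.33%) and 697 lower (3.50%) with trimmed mean (TMM) scaling. Library totals alone moved the median of all genes to -0.119. The 4 most abundant lipocalin genes, described further on, held between 8.75% and 15.2% of all counts of tested genes.

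**Figure D1:**
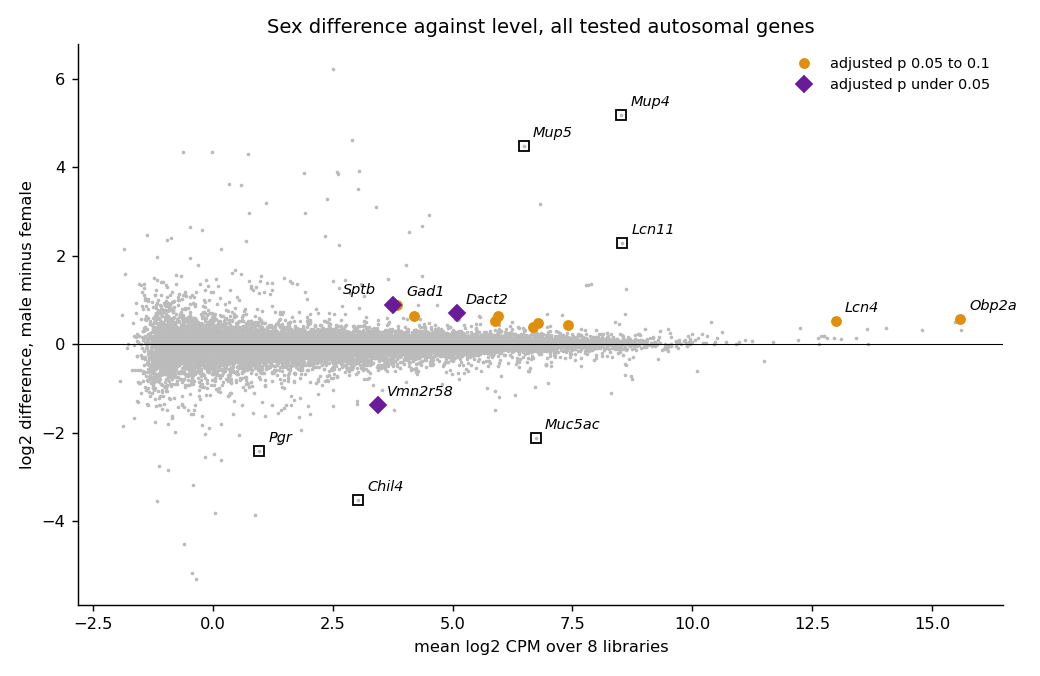
Each grey point is 1 tested autosomal gene, plotted by its mean log2 CPM over 8 libraries (x axis) and its log2 difference, male minus female (y axis). Diamonds are the 3 genes with an adjusted p under 0.05, orange circles those between 0.05 and 0.1, and open squares mark other genes named in the text. Most genes lie close to 0, and Vmn2r58 at -1.38 is the called gene with the largest difference.

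Vmn2r58 (chromosome 7, 41831120 to 41872670 of GRCm38, minus strand) encodes a member of the V2R family, the receptors of basal vomeronasal neurons, many of which bind peptides and proteins. Its level was 3.86 and 3.95 CPM in male pools and 11.5 and 11.6 CPM in female pools. In flushed mice it was 8.48 and 7.50 CPM in males and 19.6 and 18.4 CPM in females. The groups did not overlap, so that every male library lay below every female library, although flushed libraries were higher than pools in both sexes. Vmn2r58 fell in males by 1.38 on the log2 scale (2.61-fold, SE 0.10, edgeR adjusted p = 0.00078). The log2 difference was -1.56 in pools and -1.25 in flushed mice, and the interaction of sex with preparation did not pass (0.31, SE 0.18, edgeR adjusted p = 1). With any 1 of the 8 libraries left out, Vmn2r58 still passed, with an adjusted p of 0.013 at most. In 5 libraries its count held fractions, from reads shared with other loci, so part of its level could not be assigned to it alone.

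Dact2 (chromosome 17, 14195231 to 14203831, minus strand) encodes an adaptor protein that dampens Wnt and TGF-beta family signalling. It stood at 53.1 and 47.2 CPM in male pools, against 25.8 and 33.4 CPM in female pools. In flushed mice the values were 34.7 and 34.0 CPM in males and 22.0 and 21.8 CPM in females. Every male library was above every female library. Dact2 rose in males by 0.71 (SE 0.08, 1.63-fold, edgeR adjusted p = 0.047). With 1 library left out, it passed in 1 of 8 fits, and the adjusted p reached 0.23. Of the 37 tested genes in the list of Wnt modulators and targets, edgeR called Dact2 alone, and the median was 0.004. DESeq2 called 1 higher in males, Dact2, and 1 lower. With an unadjusted p under 0.05, 5 were higher in males and 2 lower (18.9% in all, against 7.88% of all tested genes). Dkk3, a member of the Dickkopf family of secreted proteins, was next by p, at -0.32 (SE 0.07, edgeR adjusted p = 0.33, DESeq2 adjusted p = 0.018).

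Sptb (chromosome 12, 76580488 to 76710547, minus strand) encodes beta-spectrin, a scaffold of the red cell membrane that is also made in muscle and brain. Male pools had 25.3 and 20.4 CPM and female pools 14.1 and 14.0 CPM. Flushed males had 11.9 and 12.3 CPM and flushed females 5.41 and 5.98 CPM. Males were above females within each preparation, but the flushed males lay below the female pools, so the sexes overlapped across preparations. Sptb rose in males by 0.88 (SE 0.11, 1.84-fold, edgeR adjusted p = 0.047), and passed in 1 of the 8 fits with 1 library left out. Of the 18 erythroid genes tested, edgeR called none, 14 had an unadjusted p under 0.05 and all of these were higher in males (77.8%, against 4.13% of all tested genes). Their summed level was 2240 and 2450 CPM in male pools, 2000 and 2090 CPM in female pools, 933 and 940 CPM in flushed males and 412 CPM in both flushed females. None of the erythroid markers tested was at 0, and their part in the level of Sptb was not tested.

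A further 9 genes had an adjusted p between 0.05 and 0.1, and all 9 were higher in males. The smallest p among them belonged to B4galnt2, which encodes a glycosyltransferase that adds N-acetylgalactosamine to cell-surface glycans. Its level was 75.3 and 64.4 CPM in male pools, 41.8 and 50.4 CPM in female pools, 72.7 and 85.3 CPM in flushed males and 49.4 and 49.6 CPM in flushed females. All males lay above all females, with a log2 difference of 0.64 (SE 0.08, edgeR adjusted p = 0.051).

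Gad1 encodes an enzyme that makes the transmitter GABA from glutamate. Its level was 19.7 and 15.7 CPM in male pools, 7.44 and 9.68 CPM in female pools, 17.9 and 21.3 CPM in flushed males and 10.7 and 12.6 CPM in flushed females. The 2 sexes did not overlap, and the log2 difference was 0.89 (SE 0.12, edgeR adjusted p = 0.072). Of 15 tested genes of transmitter synthesis and transport, edgeR called none and DESeq2 called Gad1. With an unadjusted p under 0.05, 2 were higher in males and 1 lower (20% in all, against 7.88% of all tested genes). Slc6a4, the serotonin transporter and second in that list by p, was at 0.77 (SE 0.28, edgeR adjusted p = 0.53).

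Among the other genes of this band, Sel1l3 had 145 and 124 CPM in male pools, 91.6 and 99.0 CPM in female pools, 117 and 129 CPM in flushed males and 87.4 and 88.9 CPM in flushed females (log2 difference 0.49, SE 0.06, edgeR adjusted p = 0.052). Cldn10, a claudin of tight junctions, had 72.6 and 70.7 CPM in male pools, 47.7 and 50.5 CPM in female pools, 62.1 and 72.6 CPM in flushed males and 51.5 and 44.3 CPM in flushed females (0.52, SE 0.07, edgeR adjusted p = 0.052). In neither gene did any male library reach down to a female one. Bri3bp, a membrane protein gene, was at 0.42 (SE 0.06, edgeR adjusted p = 0.081), and Tent5c, which encodes a poly(A) polymerase that stabilises messages of secreted proteins, at 0.40 (SE 0.06, edgeR adjusted p = 0.09). The lipocalins Lcn4 and Obp2a and the receptor gene Vmn2r92 complete the band and are described with their families.

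**Figure D2:**
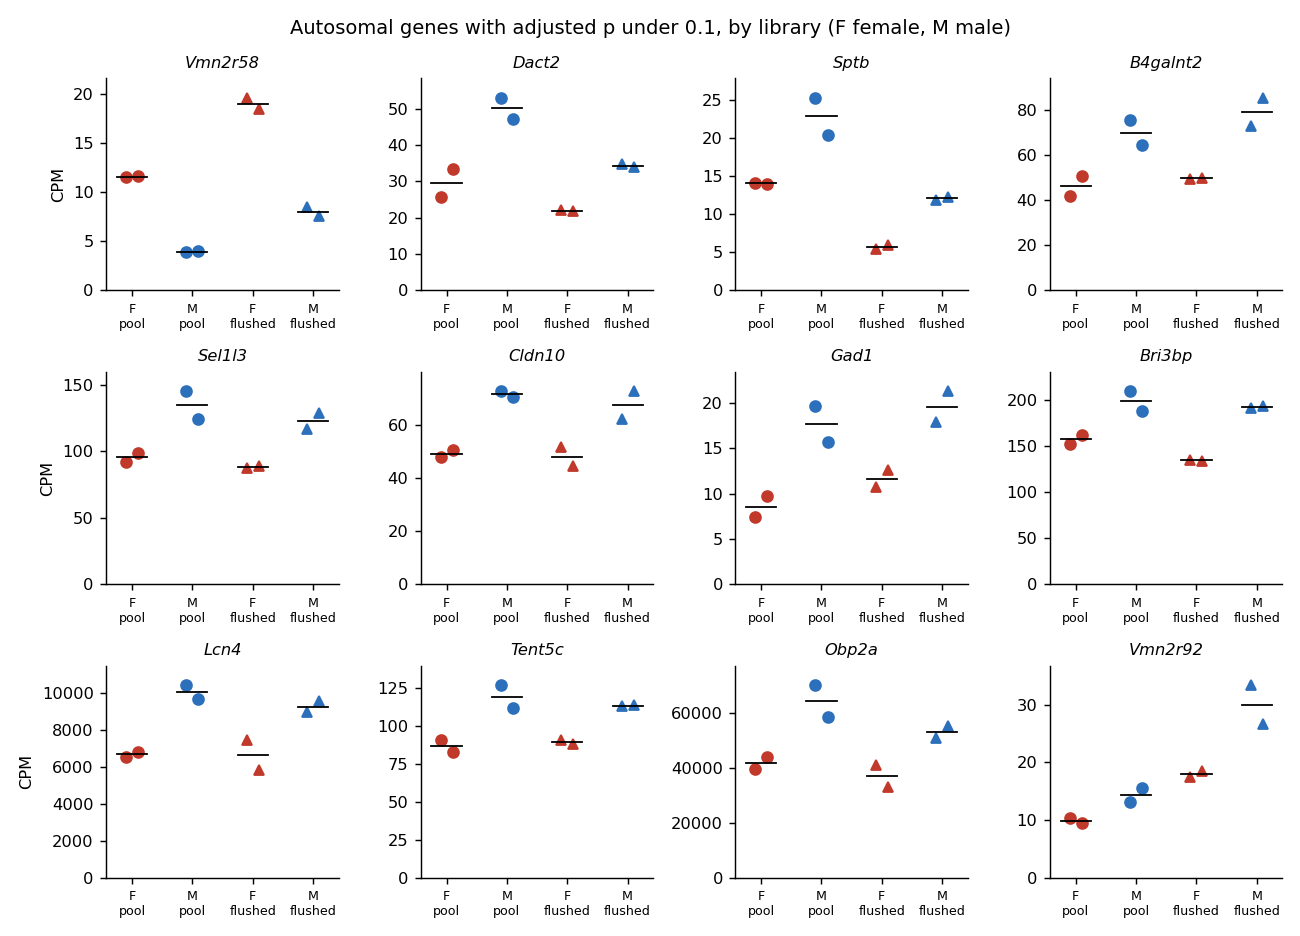
Points are single libraries and black bars the means of 2 libraries, in CPM on axes that start at 0, for the 12 genes with an adjusted p under 0.1. Circles are pools and triangles flushed single mice, red for females (F) and blue for males (M). Within each preparation the 2 sexes separate in all 12 genes, which their choice by p favours. Among all tested genes 7.83% separate the same way in both preparations. Vmn2r58 is the gene of the 12 that is lower in males.

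The next genes by p were also higher in males. Phlda1 was at 0.65 (SE 0.10, edgeR adjusted p = 0.11). Dhx37, an RNA helicase of ribosome production, was at 0.44 (SE 0.07, edgeR adjusted p = 0.13). Sox10, a transcription factor of glia and of secretory gland cells, had 29.0 and 24.5 CPM in male pools, 17.8 and 20.3 CPM in female pools, 19 and 23 CPM in flushed males and 13 and 14.2 CPM in flushed females. Flushed males overlapped the female pools, and the log2 difference was 0.56 (SE 0.09, edgeR adjusted p = 0.15). Of 13 glial genes tested, edgeR called none and DESeq2 called 1, and the median was 0.03. Among them 2 had an unadjusted p under 0.05, both higher in males (15.4%). Among all tested genes the share was 7.88% in either direction and 4.13% higher in males. Erbb3, next to Sox10 by p, was at 0.13 (SE 0.05, edgeR adjusted p = 0.55). Bace2, a membrane protease, was at 0.37 (SE 0.06, edgeR adjusted p = 0.15).

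Toward females, Pgr, the progesterone receptor, was second by p to Vmn2r58. It had 1.78 and 1.94 CPM in female pools, 1.73 and 6.51 CPM in flushed females, 0.333 and 0.413 CPM in male pools and 0.613 and 0.880 CPM in flushed males. All females lay above all males, but flushed female 3 stood far above the other females. The log2 difference was -2.41 (SE 0.42, edgeR adjusted p = 0.15, DESeq2 adjusted p = 1.7e-05). With 1 library left out it ranged from -2.78 to -1.76, and the edgeR adjusted p from 0.0088 to 0.67.

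Trpc6, a cation channel, had 3.11 and 3.83 CPM in male pools, 6.74 and 6.04 CPM in female pools, 5.56 and 5.19 CPM in flushed males and 7.06 and 9.50 CPM in flushed females. No male library reached a female one, and the log2 difference was -0.74 (SE 0.14, edgeR adjusted p = 0.19). Fcamr, a receptor for IgA and IgM, was at -0.82 (SE 0.15, edgeR adjusted p = 0.2), and Ifitm1, an interferon-induced membrane protein, at -0.50 (SE 0.09, edgeR adjusted p = 0.2). The other genes lower in males by the naming rule were Vmn2r29, Vmn2r116, Acer2, Fmo1, Tmem45b, Rab3c, H2-Aa, Mgp, Atf3 and Sost, with edgeR adjusted p-values between 0.24 and 0.33. Among these were Mgp, an inhibitor of calcification (-0.32, SE 0.07), Sost, an osteocyte inhibitor of Wnt signalling (-0.46, SE 0.11), Rab3c, a vesicle protein (-0.43, SE 0.10), and Fmo1, a detoxifying monooxygenase (-0.33, SE 0.07). Of the 15 genes higher and 15 lower in males with the smallest p, all 30 separated by sex in both preparations. DESeq2 called 28 of the 30, 15 higher and 13 lower, and these genes were picked by p in the same libraries.

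Secreted lipocalins were among the most abundant transcripts, and 2 of them, Lcn4 and Obp2a, had an adjusted p under 0.1. Obp2a (chromosome 2, 25700043 to 25703326) encodes an odorant-binding protein and had 69900 and 58200 CPM in male pools, 39500 and 43800 CPM in female pools, 50800 and 55100 CPM in flushed males and 41100 and 32900 CPM in flushed females. Every male library was above every female library (log2 difference 0.57, SE 0.09, edgeR adjusted p = 0.092). Lcn4, a lipocalin of the vomeronasal glands, had 10400 and 9660 CPM in male pools, 6550 and 6770 CPM in female pools, 8930 and 9560 CPM in flushed males and 7430 and 5840 CPM in flushed females. Again the sexes did not overlap (0.53, SE 0.08, edgeR adjusted p = 0.081).

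Obp2b, Lcn3 and Lcn11 were named after their values were seen. Obp2b was at 0.50 (SE 0.09, edgeR adjusted p = 0.15) and Lcn3 at 0.37 (SE 0.08, edgeR adjusted p = 0.33). Obp2a, Obp2b, Lcn3 and Lcn4 together took 15.2% and 13.6% of the counts of tested genes in male pools, and 12.1% and 12.8% in flushed males. In females the share was 10.1% and 11.3% in pools and 10.5% and 8.75% in flushed mice. These shares did not overlap between the sexes. The counts of all 4 held fractions in 7 or 8 libraries, so reads were shared with near-identical loci and the division among them is uncertain.

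In the whole list of lipocalins and odorant-binding proteins, 15 genes were autosomal, 9 were tested and none was called by edgeR. An unadjusted p under 0.05 was reached by 5 of the 9, all higher in males (55.6%, against 4.13% of all tested genes), and DESeq2 called 4. The list's median was 0.37, and 6 of the 9 were higher in males under TMM scaling, size factors and library totals alike. The other 4 members, named after their values were seen, were Apod at -0.01, Lcn2 at -0.37, Lcn10 at 0.27 and Rbp4 at -0.29, with unadjusted p-values of 0.13 or more.

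Lcn11 and the major urinary proteins varied much more among males. Lcn11 had 905 and 213 CPM in male pools, 184 and 173 CPM in female pools, 127 and 1200 CPM in flushed males and 95.3 and 78.1 CPM in flushed females. Male pool 1 and flushed male 3 were high, and flushed male 1 lay below the female pools. The log2 difference was 2.29 (SE 0.64, edgeR adjusted p = 0.42, DESeq2 adjusted p = 0.21).

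Mup4 and Mup5 encode major urinary proteins, lipocalins best known as pheromone carriers of male urine and also made in nasal and other glands. Mup4 had 976 and 80.2 CPM in male pools, 54.8 and 16.0 CPM in female pools, 36.2 and 1750 CPM in flushed males and 8.94 and 9.50 CPM in flushed females. Mup5 had 102 and 23.3 CPM in male pools, 10.9 and 15 CPM in female pools, 8.14 and 552 CPM in flushed males and 0.953 and 1.17 CPM in flushed females. The same 2 male libraries that were high in Lcn11 were high in both. In each preparation the males lay above the females, but flushed male 1 lay below a female pool. The log2 difference was 5.18 for Mup4 (SE 1.24, edgeR adjusted p = 0.33, DESeq2 adjusted p = 0.0099) and 4.49 for Mup5 (SE 1.40, edgeR adjusted p = 0.47, DESeq2 adjusted p = 0.05). With 1 library left out, the difference of Mup4 ranged from 3.24 to 5.96. The other 20 Mup genes in the tables were under the filter, and 14 of them had 0 counts in every library.

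**Figure D3:**
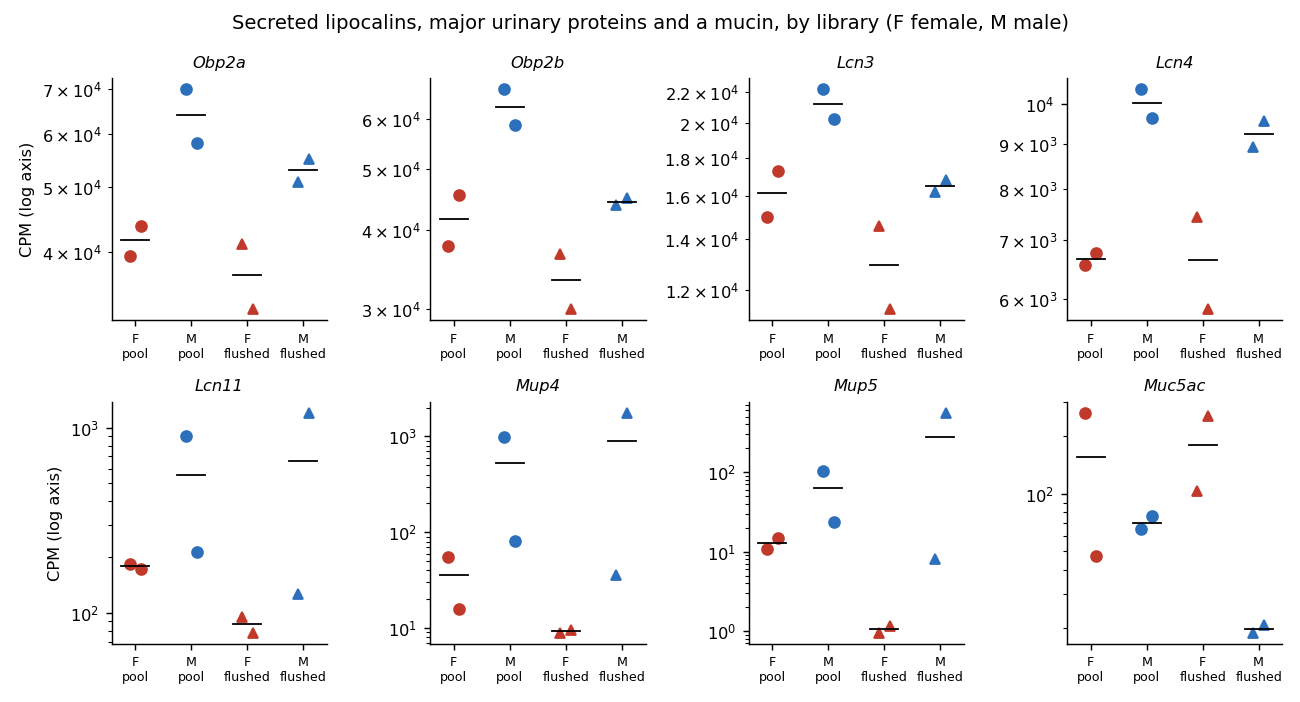
Points are single libraries and bars the means of 2, in CPM on log axes whose ranges differ between panels (F female, M male; circles pools, triangles flushed mice). Obp2a, Obp2b, Lcn3 and Lcn4 separate by sex within each preparation with little spread, while Lcn11, Mup4 and Mup5 are high in 1 male library of each preparation.

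Mucins and other airway secretory proteins went both ways. Of the 27 tested, edgeR called none and DESeq2 called 1, which was higher in males. At an unadjusted p under 0.05, 7 were lower in males and 2 higher (33.3% in all, against 7.88% of all tested genes). The median was -0.28, and 17 were below 0, or 19 with library totals alone. The list's median was 0.12 in pools and -0.51 in flushed mice, so its direction differed between preparations. Muc5ac, a gel-forming mucin of goblet cells, had 65.1 and 76.2 CPM in male pools, 264 and 47.1 CPM in female pools, 18.8 and 20.7 CPM in flushed males and 103 and 255 CPM in flushed females. Female pool 2 lay below the male pools, so the sexes separated in flushed mice only (log2 difference -2.13, SE 0.57, edgeR adjusted p = 0.41). Chil4, a chitinase-like protein of airway epithelium, was first by p in this list and is given with the interaction.

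Ciliated respiratory cells line the airway next to the sensory epithelium. Their 18 tested genes were all lower in males under each of the 3 scalings, with log2 differences from -0.67 to -0.09 and a median of -0.42. None was called by edgeR, 10 had an unadjusted p under 0.05 (55.6%, against 3.75% of all tested genes lower in males), and DESeq2 called 0. The summed level was 829 and 754 CPM in male pools, 1010 and 690 CPM in female pools, 595 and 736 CPM in flushed males and 720 and 1180 CPM in flushed females. Female pool 1 and flushed female 3 were high, and the other 2 females lay within the range of the males. These 2 libraries were also the highest in Muc5ac. Dynlrb2, a dynein light chain, had the smallest p (-0.52, SE 0.17, edgeR adjusted p = 0.47), followed by Tekt4, a protein of ciliary microtubules (-0.67, SE 0.23, edgeR adjusted p = 0.5).

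The receptor families as a whole were centred near 0. Of 116 Vmn2r genes tested, edgeR called 1. DESeq2 called 1 higher in males, Vmn2r92, and 3 lower, Vmn2r58, Vmn2r29 and Vmn2r116. With an unadjusted p under 0.05, 6 were higher in males and 14 lower (17.2% in all, against 7.88% of all tested genes). The family's median was -0.06. Vmn2r92 had 13.2 and 15.5 CPM in male pools, 10.3 and 9.48 CPM in female pools, 33.4 and 26.7 CPM in flushed males and 17.4 and 18.6 CPM in flushed females. Males were above females in each preparation, though male pools lay below flushed females (log2 difference 0.64, SE 0.10, edgeR adjusted p = 0.095). Vmn2r29 was at -0.69 (SE 0.14, edgeR adjusted p = 0.24).

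Vmn2r116 encodes the known receptor of the male tear peptide ESP1. Its level was 9.09 and 9.85 CPM in male pools, 11.6 and 12.6 CPM in female pools, 20.5 and 17.9 CPM in flushed males and 28.3 and 25.1 CPM in flushed females. Males lay below females within each preparation, by a log2 difference of -0.42 (SE 0.08, edgeR adjusted p = 0.24). All 20 Vmn2r genes with an unadjusted p under 0.05 held fractional counts in at least 1 library, so differences between similar genes are uncertain.

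Of 118 Vmn1r genes tested, which encode the V1R receptors of apical neurons, none was called by edgeR or DESeq2, and 5 had an unadjusted p under 0.05 with higher levels in males and 7 with lower (10.2% in all, near the 7.88% of all tested genes). Their median was -0.04, and 109 had a 95% interval within 1 log2 unit of 0. Vmn1r35 (0.30, SE 0.08, edgeR adjusted p = 0.38) and Vmn1r77 (-0.42, SE 0.14, edgeR adjusted p = 0.47) had the smallest p. In the Vmn1r family 67 genes were below 0, or 88 with library totals alone, and in the Vmn2r family 72, or 98.

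The 23 tested genes that vomeronasal neurons share had log2 differences from -0.22 to 0.22 and a median of -0.02, and all 23 had a 95% interval within 1 log2 unit of 0. Of the 23, 12 were below 0, or 21 with library totals alone, which put their median at -0.13 and that of all genes at -0.119. Omp itself was at -0.02 (SE 0.10). None was called by edgeR or DESeq2, and 2 had an unadjusted p under 0.05 (8.7%). Among all tested genes the share was 7.88% in either direction and 4.13% higher in males. The 2 genes were both higher in males: Ano1, a calcium-activated chloride channel of the transduction cascade (0.19, SE 0.06, edgeR adjusted p = 0.47), and Itpr3, a calcium-release channel (0.22, SE 0.07, edgeR adjusted p = 0.48). The medians were 0.03 for 7 genes of apical neurons and -0.04 for 8 of basal neurons, with Nrp2 (-0.09, SE 0.05) and Pde4a (0.11, SE 0.07) first by p in the former and B2m (-0.29, SE 0.08) and Calr (0.15, SE 0.05) in the latter. The 9 MHC class Ib genes that basal neurons co-express with V2R receptors had a median of 0.005. Of these 9, H2-M10.4 was at 0.28 (SE 0.13) and H2-M10.2 at 0.19 (SE 0.10). In these 3 lists edgeR and DESeq2 called none. B2m and Calr alone had an unadjusted p under 0.05 (25% of the basal list, against 7.88% of all tested genes). The other members of the basal list lay between -0.13 and 0.07. Which cells the B2m and Calr transcripts came from was not tested. With library totals alone all 7 apical genes were at or below 0, against 3 otherwise, and Pde4a was at 0.

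Hormone receptors bear on how sex could act on this tissue. Of 21 tested, edgeR called none, DESeq2 called Pgr, and 3 had an unadjusted p under 0.05 with higher levels in males and 2 with lower (23.8% in all, against 7.88% of all tested genes). The median was 0.04, or -0.07 with library totals alone, and 18 of the 21 had a 95% interval within 1 log2 unit of 0. Esr1, the main oestrogen receptor, had 16.6 and 12.7 CPM in male pools, 14.3 and 11.1 CPM in female pools, 19.9 and 17.3 CPM in flushed males and 16.8 and 19.9 CPM in flushed females. The sexes overlapped in both preparations, and the 95% interval of the log2 difference was -0.16 to 0.37. Esr2 was scarce, at most 0.778 CPM. Esrrg, an orphan receptor of the oestrogen-related group, was second to Pgr by p (0.41, SE 0.13, edgeR adjusted p = 0.48). The androgen receptor gene lies on chromosome X and was left out.

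Among 21 tested genes of steroid synthesis and metabolism, edgeR and DESeq2 called none. An unadjusted p under 0.05 was reached by 2, both lower in males (9.52%). Among all tested genes the share was 7.88% in either direction and 3.75% lower in males. These were Cyp7b1, a steroid hydroxylase (-0.37, SE 0.14, edgeR adjusted p = 0.57), and Akr1c18, which inactivates progesterone (-1.29, SE 0.55, edgeR adjusted p = 0.61). Flushed female 3, the library highest in Pgr, was also highest in Akr1c18, at 3.40 CPM against 0.650 to 1.91 CPM in the other females. Of 22 steroid-responsive genes, edgeR called none and DESeq2 called 1. With an unadjusted p under 0.05, 2 were higher in males and 3 lower (22.7% in all, against 7.88% of all tested genes). Ccnd1, a cell cycle activator, was at 0.24 (SE 0.05, edgeR adjusted p = 0.24), and Sgk1, a kinase induced by corticosteroids, at -0.41 (SE 0.13, edgeR adjusted p = 0.47).

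Other lists were described in the same way. For circadian clock genes, 9 of 20 had an unadjusted p under 0.05, all higher in males (45%, against 4.13% of all tested genes), edgeR called none and DESeq2 called 2, with a median of 0.13. With library totals alone the median was 0.02, and 10 rather than 16 genes were above 0. Nr1d1, a repressor of the clock, had 60.5 and 56.2 CPM in male pools, 42.9 and 41.3 CPM in female pools, 23.7 and 18.1 CPM in flushed males and 10.6 and 9.46 CPM in flushed females (log2 difference 0.74, SE 0.12, edgeR adjusted p = 0.15). Males lay above females in each preparation, and pools were far above flushed mice. Bhlhe41, another clock repressor, was at 0.39 (SE 0.09, edgeR adjusted p = 0.33).

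Genes of MHC class II and antigen presentation were lower in males in 15 of 16 cases, with a median of -0.16. In this list edgeR called none, 8 had an unadjusted p under 0.05 with lower levels in males and 1 with higher (56.2% in all, against 7.88%), and DESeq2 called 1. H2-Aa, a class II chain, had 97.9 and 102 CPM in male pools, 136 and 125 CPM in female pools, 155 CPM in both flushed males and 191 and 166 CPM in flushed females (log2 difference -0.29, SE 0.07, edgeR adjusted p = 0.33). Males were lower in each preparation, but flushed males were above female pools. Cd74, the invariant chain that pairs with class II, was at -0.23 (SE 0.07, edgeR adjusted p = 0.43).

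Cartilage genes had a median of 0.34 over 12 tested, with 0.15 in pools and 0.40 in flushed mice, and 4 of the 12 were below 0. Their summed level was 1160 CPM in both male pools and 1050 and 1100 CPM in female pools. In flushed mice it was 571 and 463 CPM in males and 485 and 527 CPM in females, so the sexes overlapped there. In the cartilage list edgeR called none and DESeq2 called 3. At an unadjusted p under 0.05, 5 were higher in males and 1 lower (50% in all, against 7.88%). Sox9, a transcription factor of cartilage and of gland ducts and acini, had 22.7 and 17.6 CPM in male pools, 14.1 and 12.4 CPM in female pools, 15.9 and 19.4 CPM in flushed males and 12.2 and 11.1 CPM in flushed females. Every male library lay above every female library (0.60, SE 0.10, edgeR adjusted p = 0.15). Cnmd, a cartilage protein, was at 0.50 (SE 0.10, edgeR adjusted p = 0.24). Among 13 fibroblast and matrix genes, Col3a1 (0.37, SE 0.07, edgeR adjusted p = 0.22) and Col1a1 (0.33, SE 0.09, edgeR adjusted p = 0.42) came first by p. In that list edgeR called none, DESeq2 called 1, and the median was 0.13, or 0.01 with library totals alone. An unadjusted p under 0.05 was reached by 5, all higher in males (38.5%, against 4.13% of all tested genes). Their list's summed level was 51900 and 53300 CPM in male pools and 41900 and 42100 CPM in female pools. In flushed mice it was 27100 and 20600 CPM in males and 21600 and 21700 CPM in females, so the sexes overlapped there. Col1a1 also overlapped in flushed mice, at 9100 and 6640 CPM in males and 6940 and 6440 CPM in females.

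Replication-dependent histone genes were higher in males in 58 of 62 cases, or 51 with library totals alone. Their median was 0.23, 14 had an unadjusted p under 0.05, all higher in males (22.6%, against 4.13% of all tested genes), and neither edgeR nor DESeq2 called any. Hist1h3b (0.46, SE 0.14, edgeR adjusted p = 0.43) and Hist1h3e (0.31, SE 0.10, edgeR adjusted p = 0.47) had the smallest p. Their counts held fractions in 7 and 8 libraries, so differences between similar histone genes are uncertain. The list's summed level was 1800 and 2210 CPM in male pools and 1650 and 1830 CPM in female pools. In flushed mice it was 1210 and 899 CPM in males and 912 and 1000 CPM in females. The sexes thus overlapped in each preparation. Most histone messages lack a poly(A) tail, and these libraries were made from polyA-selected RNA. Of 15 skeletal muscle genes tested, 2 had an unadjusted p under 0.05, both higher in males (13.3%, against 7.88% of all tested genes in either direction and 4.13% higher in males). All 15 were above 0, or 13 with library totals alone, and none was called by edgeR or DESeq2. Their summed level was 103 and 65.7 CPM in male pools, 80.0 and 57.3 CPM in female pools, 100 and 43.1 CPM in flushed males and 46.6 and 45.3 CPM in flushed females, so male pool 1 and flushed male 1 were high and the sexes overlapped in each preparation. Ckm, the muscle creatine kinase, was at 1.15 (SE 0.39) and Myh1, a fast myosin, at 1.50 (SE 0.62), with edgeR adjusted p-values of 0.5 and 0.6.

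**Figure D4:**
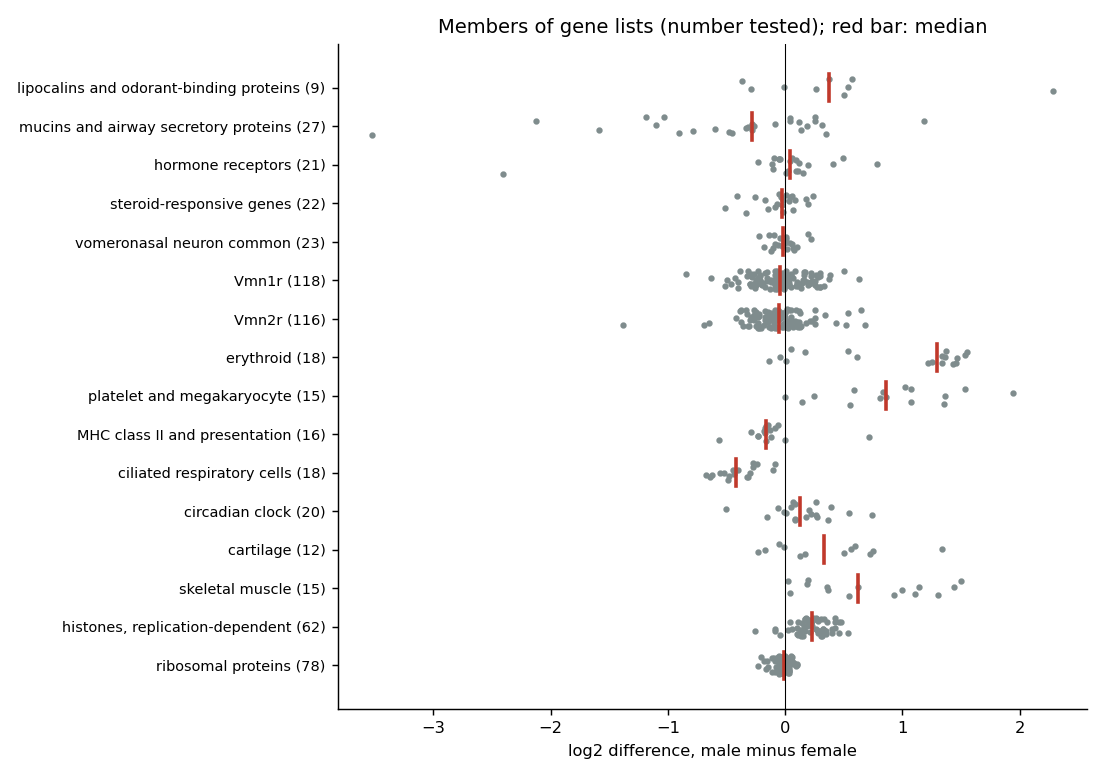
Each point is 1 tested member of a list, placed by its log2 difference, male minus female (x axis), with the number tested in parentheses and the list's median as a red bar. With TMM scaling, neuron and receptor lists have medians near 0, ciliated cell genes all lie below 0, and erythroid and platelet genes lie mostly above 0.

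The difference between the sexes was also taken within each preparation. In edgeR contrasts of the 4 group means, 1 gene passed an adjusted p of 0.05 in pools, Vmn2r58 (percent called 0.00502), and 5.38% of genes had an unadjusted p under 0.05. In flushed mice 16 genes passed (percent called 0.0803) and 5.29% had an unadjusted p under 0.05. The interaction of sex with preparation, which tests whether the difference itself varied, passed for 9 genes (percent called 0.0452) and had an unadjusted p under 0.05 for 647 (3.25%). The flushed females and males in this test are 2 single mice each.

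The haemoglobin genes Hba-a1, Hba-a2, Hbb-bs and Hbb-bt led the interaction. Hba-a1 had 412 and 431 CPM in male pools and 363 and 362 CPM in female pools. In flushed mice it had 127 and 145 CPM in males and 22.9 and 21.7 CPM in females. The difference was 0.22 in pools and 2.61 in flushed mice, and it varied by 2.39 (SE 0.13, edgeR adjusted p = 0.00018). For the other haemoglobin genes it varied by 2.12 to 2.37. Flushing clears red blood cells from the vessels, and how completely it did so in each mouse was not tested.

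The erythroid list as a whole had a median of 1.30, with 0.28 in pools and 2.37 in flushed mice. Slc4a1, the red cell anion exchanger, was at 1.55 (SE 0.33, edgeR adjusted p = 0.29), and Rhd, a blood group protein, at 1.44 (SE 0.32, edgeR adjusted p = 0.33). No erythroid gene was called by edgeR for the sex difference, and DESeq2 called 5. Platelet genes followed the same order, with a median of 0.86, of which 0.34 in pools and 1.74 in flushed mice. Of the 15 tested, 9 had an unadjusted p under 0.05, all higher in males (60.0%, against 4.13%), edgeR called none and DESeq2 called 2. Gp5, a platelet surface glycoprotein, was at 1.07 (SE 0.26), and Tubb1, the platelet tubulin, at 1.36 (SE 0.38), with edgeR adjusted p-values of 0.33 and 0.42.

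The 5th gene of the interaction by the naming rule, Sbpl, a relative of the spermine-binding protein secreted by glands, went opposite ways. It had 1030 and 583 CPM in male pools, 254 and 423 CPM in female pools, 61.2 and 46.2 CPM in flushed males and 306 and 382 CPM in flushed females. Males were thus above females in pools and below them in flushed mice, and the difference varied by -3.93 (SE 0.42, edgeR adjusted p = 0.014). The other 4 genes, Ighm, Sbp, Chil4 and Tff2, were named after their values were seen, because they complete the 9.

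Ighm, the IgM heavy chain of B and plasma cells, had 51.2 and 47.7 CPM in flushed males and 12.3 to 21.3 CPM in the other 6 libraries. The 18 tested genes of B and plasma cells, Ighm included, had a median of 0.17, with 11 above 0 and 7 below. In flushed mice their summed level was 881 and 729 CPM in males and 750 and 570 CPM in females, so the sexes overlapped. Xbp1, second in that list by p, was at 0.14 (SE 0.06, edgeR adjusted p = 0.62). Chil4 had 27.6 and 26.2 CPM in flushed females and 0.278 to 3.57 CPM in the other 6. Tff2, a trefoil peptide of mucous secretions, had 157 and 291 CPM in flushed females, 35 and 45.1 CPM in flushed males, and 73.9 to 172 CPM in pools. For Chil4 and Ighm the flushed mice of 1 sex thus stood apart from all other libraries.

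**Figure D5:**
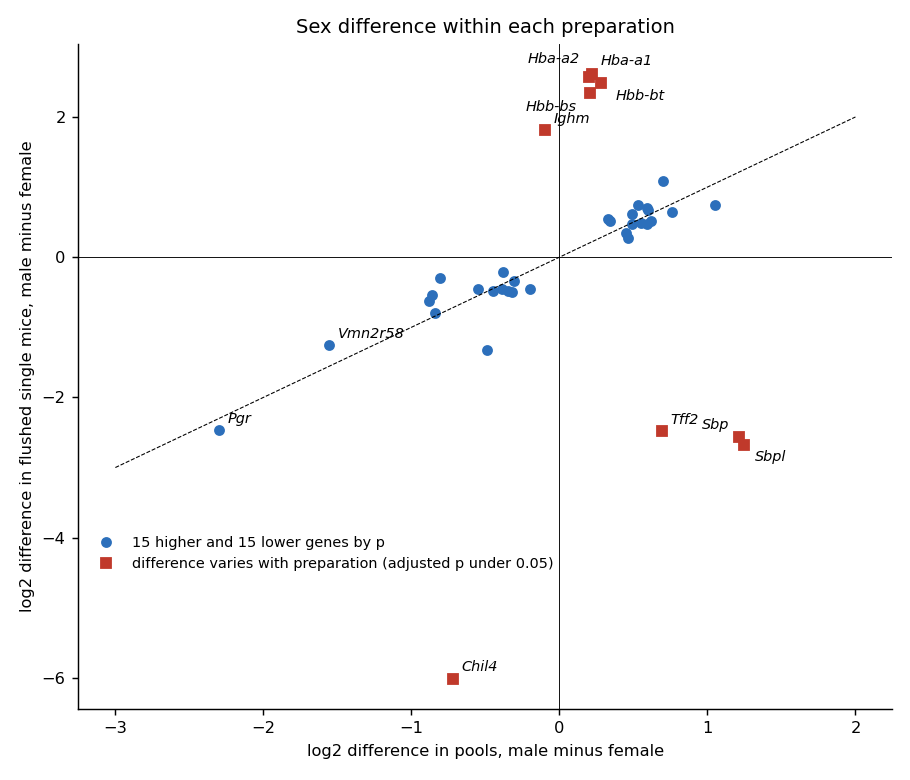
Each point is 1 gene, placed by its log2 difference, male minus female, in pools (x axis) and in flushed single mice (y axis), with 2 libraries per sex in each. The dashed line marks equal differences. The 30 genes with the smallest p (circles) keep 1 direction in both preparations, which their choice by p favours, and the 9 genes of the interaction (squares) lie away from the line.

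Some of the genes with small p were neighbours. Of 59 genes with an unadjusted p under 0.001 and a mean log2 CPM of 0 or more, 5 pairs lay within 100 kb of each other. Both members of all 5 pairs were higher in males. How often neighbours share a direction among all tested genes was not counted, so these pairs have no background to compare with. Bri3bp and Dhx37 lie 7447 bases apart on chromosome 5, on opposite strands, with log2 differences of 0.42 and 0.44. Obp2a and Obp2b lie 33683 bases apart on chromosome 2, on the same strand, with 0.57 and 0.50.

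Vmn2r91 and Vmn2r92 lie 6906 bases apart on chromosome 17, on the same strand, with 0.68 and 0.64. The pairs Sox9 with BC006965, on chromosome 11, and Trpv6 with Ephb6, on chromosome 6, lie 248 and 112 bases apart on opposite strands and were higher in males too. Of these genes Obp2b, Vmn2r91, BC006965, Trpv6 and Ephb6 were named after their values were seen. In Obp2a, Obp2b, Vmn2r91 and Vmn2r92 counts held fractions from reads shared between loci, whose part in these like differences was not tested.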

How the data were processed

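The 8 libraries of vomeronasal epithelium used a strand-specific kit on polyA-selected RNA and were sequenced from 1 end over 100 nt, per the labels' protocols. Alignment used STAR 2.7.1a with GRCm38 (mm10), and counting used featureCounts 1.6.5, as given per the submitters' processing notes. What the authors deposited are expected counts per gene. Reads that align to several places were split into fractions among them, counting was reverse stranded over exons of a modified Ensembl annotation, and reads over more than 1 gene were not counted, per the file headers. No normalization is recorded there. In each library 10.16% to 11.79% of genes had fractional counts, so levels of near-identical genes are uncertain. Replicates are separate pools or mice, per the labels.

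Genes on X, Y and MT were removed and counts rounded. edgeR 4.0.16 (R 4.3.3) fitted sex with preparation as a covariate, after filterByExpr on the 4 groups (minimum count 10) and TMM scaling, with Benjamini-Hochberg adjustment over all tested genes and a threshold of 0.05. SE is the log2 difference divided by the square root of F. CPM values are unrounded counts over the scaled total of tested genes. DESeq2 1.42.0, limma-voom (limma 3.58.1), other scalings, filters, gene sets and subsets of libraries were alternatives. Some of these, for the separation of libraries and within preparations, were chosen after seeing the data.

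Symbols were matched by Ensembl identifier. Named genes were those called, the 15 with the smallest p in each direction (mean log2 CPM at least 0, no clone names), the 2 with the smallest p of each list described, and the 5 with the smallest p of the interaction. Exceptions are marked. Members and gene lists were chosen with earlier results of these data known.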

Additional observations from a re-analysis of the deposited data

Results flagged for a closer look

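Among the 79 genes examined for a library far from the other 3 of its sex, 4 of 158 groups held such a library. For 4 values from 1 normal population, chance marks about 1 group in 20. The 4 libraries of a sex mix pools and flushed mice, so that rate need not hold here. A library that stands apart only within its preparation can be missed. Flushed female 3 had 6.51 CPM of Pgr against 1.73 to 1.94 CPM in the other females. Female pool 1 had 54.8 CPM of Mup4 against 8.94 to 16.0 CPM, and 41.8 CPM of B4galnt2 against 49.4 to 50.4 CPM. Male pool 1 had 127 CPM of Tent5c against 112 to 114 CPM in the other males.

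The sex difference itself varied with preparation for 9 genes, by an edgeR interaction test. The log2 difference, male minus female, was larger in flushed mice than in pools by 2.39 for Hba-a1, 2.37 for Hba-a2, 2.19 for Hbb-bt, 2.12 for Hbb-bs and 1.91 for Ighm. It was smaller in flushed mice, with values of -3.93 for Sbpl, -3.77 for Sbp, -5.28 for Chil4 and -3.17 for Tff2.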

How the results depend on the processing

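Against 3 genes called, the count was 108 with DESeq2, 1 with limma-voom, 1 with library totals alone, 6 with a filter of 20 counts in every library of a sex, 12 with X, Y and MT genes kept, and 3 with size factors in place of TMM, without scaffold genes or with fractional counts. The 3 genes were among the 108 and the 12. It was 9 in flushed mice alone, and 0 without the preparation term (471 at an unadjusted p under 0.05) and 0 in pools alone (804). Without a filter it was 765, 314 higher and 451 lower, but there the median degrees of freedom of the test rose from 10.4 to 156265, so that nearly all genes shared 1 estimate of spread. With 1 library left out it ranged from 1 to 6, with 1 without male pool 1 or female pool 2 and 6 without male pool 2 or flushed female 2. The interaction gave 27 genes with DESeq2 and 4 to 17 with 1 library left out, against 9, with 17 without female pool 2, 5 without male pool 1 or flushed male 1, and 4 without flushed female 3 or flushed male 3. Genes separated by sex in both preparations numbered 3378 with library totals alone and 1578 with size factors, against 1560. The causes were not tested.

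The 79 genes followed were mostly named for a small p in these same libraries, which favours a kept direction. Of the 79, 77 kept their direction in every alternative that could be fitted. The exceptions were Sbpl, which has opposite differences in pools and flushed mice (0.33 without the preparation term, 1.25 in pools alone, and from -1.51 to 0.09 with 1 library left out, positive without flushed male 1, at 0.02, or flushed male 3, against -0.69), and Pde4a, which was at 0 with library totals alone. No paired analysis was possible because pools are numbered by listed order only and the single mice of the 2 sexes share just number 3. With 2 libraries per sex and preparation, differences of low genes are imprecise: of 2528 genes with a mean log2 CPM under 0, 40.3% had an interval within 1 log2 unit.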
